A study of Mus musculus with 14 samples.

Results

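The NDRG family comprises the 4 mouse genes *Ndrg1*, *Ndrg2*, *Ndrg3* and *Ndrg4*, and its expression was followed in Ocy454 cells, an osteocyte-like mouse cell line. Members were taken by gene symbol. All 4 were found among the 39179 genes of the differentiation table and among the 35886 genes of the sorted libraries, where 47 of 116747 quantified transcripts belong to them. RNA was measured in 14 libraries. Of these, 8 came from Ocy454 cells that had been grown to confluence at 33 °C and moved to 37 °C, the temperature at which they differentiate, with 2 biological replicates collected on each of days 1, 7, 10 and 14. The other 6 libraries came from cells stained for CD61, the integrin beta-3 surface protein, after 17 days at 37 °C. Live cells in the top 10% (CD61high) or bottom 10% (CD61low) of CD61 fluorescence were collected, with 3 replicates per group. All samples are untreated cells of a single conditionally immortalized line carrying a thermosensitive large T antigen, so time in culture and time at 37 °C cannot be told apart. The methods describe the day replicates as biological duplicates. For the sort they describe 3 independent groups of cells, from which the top and bottom 10% were collected. All are of the same line. The labels do not say which CD61high and CD61low libraries share a group, and the main test did not pair them.

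NDRG proteins share an alpha/beta hydrolase fold but lack its catalytic activity, and the family takes its name from *Ndrg1*, whose transcription is repressed by N-Myc. *Ndrg1* is a textbook hypoxia-induced gene and its protein is a substrate of the kinases SGK1 and GSK3. *Ndrg2* is best known from astrocytes and as a growth-restraining gene. The NDRG3 protein is hydroxylated by the oxygen sensor PHD2 and binds lactate, which stabilizes it. *Ndrg4* is known from neurons and heart. In the study *Ndrg4* was among the genes followed up from a CRISPR interference screen for CD61 and was targeted with shRNAs, which makes its transcripts of interest in these cells.

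The depth of the differentiation libraries was 27518605 to 34311238 reads counted on genes, and that of the sorted libraries was 18815602 to 19220064 estimated counts. *Itgb3*, which encodes CD61 and checks the sort, averaged 111 CPM (reads scaled to a common library total) in CD61high and 5.65 CPM in CD61low cells after TMM scaling. Of 12 osteoblast and osteocyte markers, 10 could be tested. At day 14, 8 were higher and 2 lower than at day 1 (32.6% and 36% of all genes). *Mepe* and *Fgf23* were at 0.41 CPM or below in every group mean. Markers of adipocytes, endothelial cells and neurons or glia summed to at most 0.755, 0.861 and 3.13 CPM in any library. Macrophage markers summed to 1.77 to 5.19 CPM over the days and to 12.8 to 15.8 CPM in CD61low against 8.18 to 8.86 CPM in CD61high cells, with *Cd68* as the only member above 1 CPM and *Adgre1* at 0 in the sorted libraries. The part of these cell types in the results was not tested.

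*Ndrg1* (ENSMUSG00000005125, chr15:66801166-66841835, minus strand, GRCm39) was the most abundant member and rose during differentiation. Its CPM values were 95.5 and 98.3 in the day 1 libraries, 388 and 386 on day 7, 235 and 226 on day 10, and 973 and 1032 on day 14. No library of any day overlapped with those of another day, and the order of the days was 1, 10, 7, 14. Against day 1, *Ndrg1* rose by a Log2FC of 1.99 ± 0.04 at day 7 (SE, limma, adjusted p = 6.5e-25) and of 3.36 ± 0.04 at day 14 (limma, adjusted p = 5.0e-30), a 10.3-fold ratio of mean CPM. In these bulk libraries more cells with *Ndrg1* RNA and more *Ndrg1* RNA per cell cannot be told apart. The rise was interrupted. From day 7 to day 10 *Ndrg1* fell by 0.75 on the log2 scale (limma, adjusted p = 9.5e-15), and from day 10 to day 14 it rose by 2.12 (limma, adjusted p = 1.1e-23). Log2FC here is a difference of log2(CPM + 1) between group means, with the SE and p from a fit over all 8 libraries. That fit draws its spread partly from all genes tested, so the size of p depends on its settings. Fitted without limma's trend, *Ndrg1* at day 14 against day 1 had an adjusted p of 1.4e-08. A gene passed at a Benjamini-Hochberg adjusted p below 0.01. The antisense long noncoding genes *Gm17035* and *Gm2895*, whose exons overlap those of *Ndrg1*, reached at most 0.419 CPM.

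*Ndrg2* (ENSMUSG00000004558, chr14:52142588-52158469, minus strand) had the lowest CPM of the 4 genes and the largest proportional rise among them. It was at 0.472 and 0.659 CPM at day 1, from 16 and 21 reads, then at 14.5 and 14.7 CPM on day 7, 4.50 and 3.16 CPM on day 10, and 24.2 and 26.2 CPM on day 14. The days took the same order as for *Ndrg1* and again did not overlap. The Log2FC against day 1 was 3.32 ± 0.12 at day 7 and 4.07 ± 0.12 at day 14 (SE, limma, adjusted p = 1.2e-18 and 9.4e-21). The ratio of mean CPM between days 14 and 1 was 44.6, larger than this Log2FC gives, because adding 1 CPM before taking logs compresses changes of low genes. Between days 7 and 10, *Ndrg2* fell by 1.71 on the log2 scale (limma, adjusted p = 6.4e-12), and between days 10 and 14 it rose by 2.45 (limma, adjusted p = 3.1e-15). The day 10 Log2FC against day 1 was 1.61 and became 2.73 with edgeR on recovered reads, which uses no such pseudocount.

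**Figure D1:**
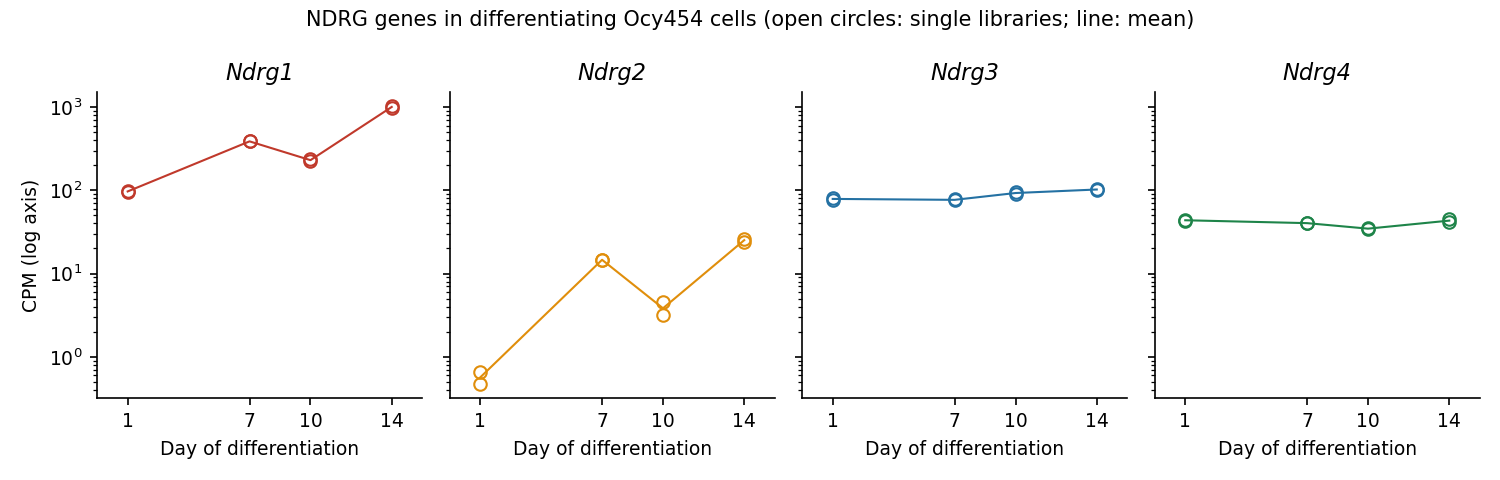
CPM of each NDRG gene (log axis) against day of differentiation, with open circles for the 2 libraries of each day and a line through their means. *Ndrg1* and *Ndrg2* rise to day 7, dip at day 10 and reach their highest levels at day 14, whereas *Ndrg3* stays between 75.5 and 105 CPM and *Ndrg4* between 34.1 and 44.8 CPM.

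Short stretches of the *Ndrg2* promoter are shown because *Ndrg2* moved like *Ndrg1* and like genes induced by hypoxia-inducible factors (HIF). The HIF core element was searched as ACGTG and GCGTG on both strands, in RefSeq promoters of assembly GRCm38.p6 that span 250 bases before to 50 bases after a start. The table held 9 entries for 3 of the 4 genes and none was matched for *Ndrg1*. Of the 9 entries, 5 (55.6%) held at least 1 match, against 43.8% of all 32851 promoters. The *Ndrg2* entry whose start lies in the first exon of transcripts with 93.3% of the *Ndrg2* counts held 3 GCGTG matches and no ACGTG. That RefSeq start lies 253 bases after the GENCODE start of those transcripts. The 2 matches before the RefSeq start, which come after the GENCODE start, are given in capitals, the second being on the opposite strand (GCGTG alone was present in 32.4% of all promoters):
Ndrg2 chr14:51913609-51913637, minus strand, GRCm38.p6: ccgttgatgtggGCGTGgggaccatttgg
Ndrg2 chr14:51913575-51913603, minus strand, GRCm38.p6: taagggatccccCACGCtcaccccacttc
A match of these letters is a description and says nothing of binding.

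*Ndrg3* (ENSMUSG00000027634, chr2:156769259-156834154, minus strand) changed little. Its libraries held 76.2 and 81.3 CPM on day 1, 75.5 and 78.1 CPM on day 7, 90.8 and 94.7 CPM on day 10, and 99.8 and 105 CPM on day 14. Days 1 and 7 overlapped, and both lay below days 10 and 14. *Ndrg3* rose by a Log2FC of 0.23 ± 0.05 from day 1 to day 10 and by 0.37 ± 0.05 from day 1 to day 14 (SE, limma, adjusted p = 6.7e-05 and 5.7e-08), a 1.30-fold ratio of mean CPM at day 14. Day 7 against day 1 did not pass (Log2FC -0.04, limma, adjusted p = 0.5), nor did day 14 against day 10 (0.14, adjusted p = 0.011). *Ndrg3* rose from day 7 to day 10, by 0.27 (limma, adjusted p = 1.8e-05), over the same interval in which *Ndrg1* and *Ndrg2* fell.

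*Ndrg4* (ENSMUSG00000036564, chr8:96403608-96441747, plus strand) ended near its starting level. The day 1 libraries held 42.9 and 44.4 CPM, day 7 held 40.2 and 40.5 CPM, day 10 held 34.1 and 35.2 CPM, and day 14 held 44.8 and 41.7 CPM. Day 10 was the lowest, and days 1 and 14 overlapped. *Ndrg4* fell by 0.33 on the log2 scale from day 1 to day 10 and rose by 0.31 from day 10 to day 14 (limma, adjusted p = 1.1e-05 and 3.0e-05). The difference between days 14 and 1 was a Log2FC of -0.01 ± 0.06 (SE, limma, adjusted p = 0.82), and that between days 7 and 1 was -0.11 (adjusted p = 0.081). The fall from day 7 to day 10 (by 0.21, limma, adjusted p = 0.0019) no longer passed without day 7 replicate 1 (adjusted p = 0.012), day 7 replicate 2 (0.017) or day 10 replicate 1 (0.023).

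Counted over the family, 2 of the 4 genes rose and none fell between days 1 and 7, where 56.5% of the 12725 genes tested passed, 24.5% higher and 32% lower. Between days 1 and 10, 3 rose and 1 fell, beside 63.5% of all genes, 33.1% higher and 30.3% lower. Between days 1 and 14, 3 rose and none fell, beside 68.6% of all genes, 32.6% higher and 36% lower. From day 7 to day 10, 1 rose and 3 fell, beside 48.7% of all genes, 29.8% higher and 18.9% lower. From day 10 to day 14, 3 rose and none fell, beside 52.8% of all genes, 22.9% higher and 30% lower. With so many genes passing, little can be read from the count of 4 members, and the members differ more in the size of their changes. *Ndrg1* and *Ndrg2* were above a Log2FC of 1 at days 7, 10 and 14 against day 1, as were 4.49%, 6.06% and 7.51% of all genes. Both were again above 1 from day 10 to day 14, as were 2.09% of genes, and *Ndrg2* alone was below -1 from day 7 to day 10, as were 0.786% of genes. The comparisons with day 1 share its 2 libraries, and the comparisons of days 10 with 7 and 14 with 10 share the day 10 libraries. In 2 against 2 libraries, no permutation test of a single gene can reach 0.05.

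Levels of different genes were compared per length. On the scale of CPM per kb of gene model, *Ndrg1* made up 42.5% ± 0.45 (SD, n = 2) of the family total on day 1, 70.3% ± 0.39 on day 7, 61.7% ± 0.83 on day 10 and 81.9% ± 0.30 on day 14. The share of *Ndrg3* went from 33.6% at day 1 to 8.12% at day 14 and that of *Ndrg4* from 23.2% to 4.29%, although neither gene was called lower in CPM between those days. *Ndrg2* held 0.681% of the family total on day 1, 7.31% on day 7, 2.82% on day 10 and 5.67% on day 14. The family total itself went from 38.7 to 208 CPM per kb.

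**Figure D2:**
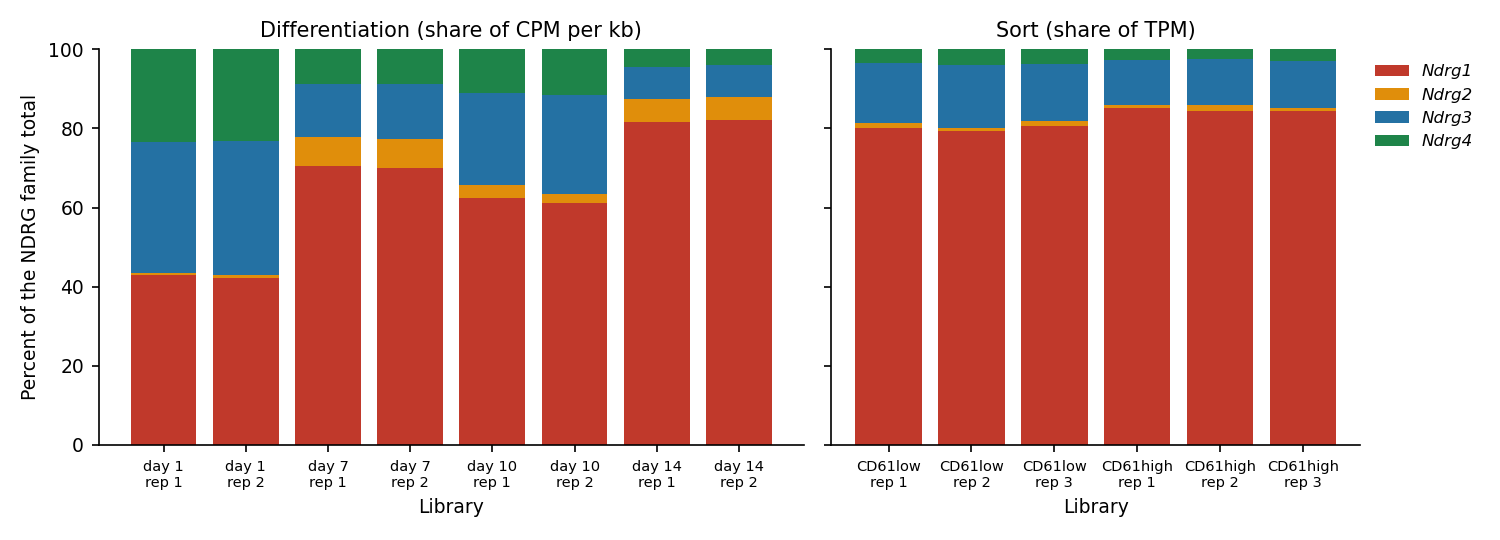
Percent of the NDRG family total held by each gene in every library, from CPM per kb in the differentiation libraries (left) and from TPM in the sorted libraries (right). On the left, the *Ndrg1* segment grows from 42.5% at day 1 to 81.9% at day 14. On the right, it is at 80.1% in CD61low and 84.7% in CD61high cells. The scales of left and right are not compared with each other.

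The sort addressed whether the family differs between cells of the same culture age with high and low CD61. *Ndrg1* was at 637, 524 and 612 CPM after TMM scaling in the CD61low libraries and at 1019, 976 and 1003 CPM in the CD61high libraries, and every CD61high library lay above every CD61low library. The Log2FC was 0.76 ± 0.08 (SE, edgeR quasi-likelihood test, adjusted p = 3.9e-05), a 1.69-fold ratio of means. *Ndrg1* was among the 35.4% of 12077 genes that passed (19.4% higher and 16% lower in CD61high), and below the Log2FC of 1 that 4.84% of genes exceeded upward. Scaled by library size alone, its Log2FC was 0.46 and still passed (adjusted p = 4.7e-04).

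For *Ndrg2* the CD61low libraries held 3.97, 3.05 and 3.37 CPM and the CD61high libraries 4.99, 4.49 and 6.18 CPM, from 65 to 105 estimated counts per library. The groups did not overlap, but the difference did not pass (Log2FC 0.59 ± 0.19, SE, edgeR, adjusted p = 0.028). *Ndrg3* was at 103, 90.2 and 94.9 CPM in CD61low and at 116, 119 and 121 CPM in CD61high cells, and passed at a Log2FC of 0.30 ± 0.07 (SE, edgeR, adjusted p = 0.0061). *Ndrg4* was at 21.1, 18.9 and 19.7 CPM in CD61low and at 23.8, 22.1 and 27.5 CPM in CD61high cells, with a Log2FC of 0.30 ± 0.11 that did not pass (SE, edgeR, adjusted p = 0.039). No member was called lower.

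The results for *Ndrg2*, *Ndrg3* and *Ndrg4* in the sort depend on the scaling. TMM factors were 1.10 to 1.13 in the CD61low and 0.895 to 0.909 in the CD61high libraries, so they separate the groups. Without them, *Ndrg3* averaged 107 CPM in both groups and *Ndrg4* 22.1 against 22.0 CPM, with a Log2FC of 0.00 and -0.00 (edgeR, adjusted p = 0.99 and 0.98). *Ndrg2* then had a Log2FC of 0.29 (edgeR, adjusted p = 0.21), with 3.44 to 4.39 CPM in CD61low and 4.08 to 5.53 CPM in CD61high libraries. The unscaled groups of *Ndrg2*, *Ndrg3* and *Ndrg4* overlapped. Under that scaling the median Log2FC over all genes was -0.29 and the share of calls that were higher in CD61high went from 54.8% to 18.9%. Relative to this median *Ndrg3* and *Ndrg4* were each 0.29 higher. *Ndrg3* kept its call without CD61low replicate 1 (adjusted p = 0.0054) and lost it when any other library was left out (adjusted p 0.01 to 0.043). With the replicate number as a block, *Ndrg3* did not pass (Log2FC 0.30, edgeR, adjusted p = 0.017).

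**Figure D3:**
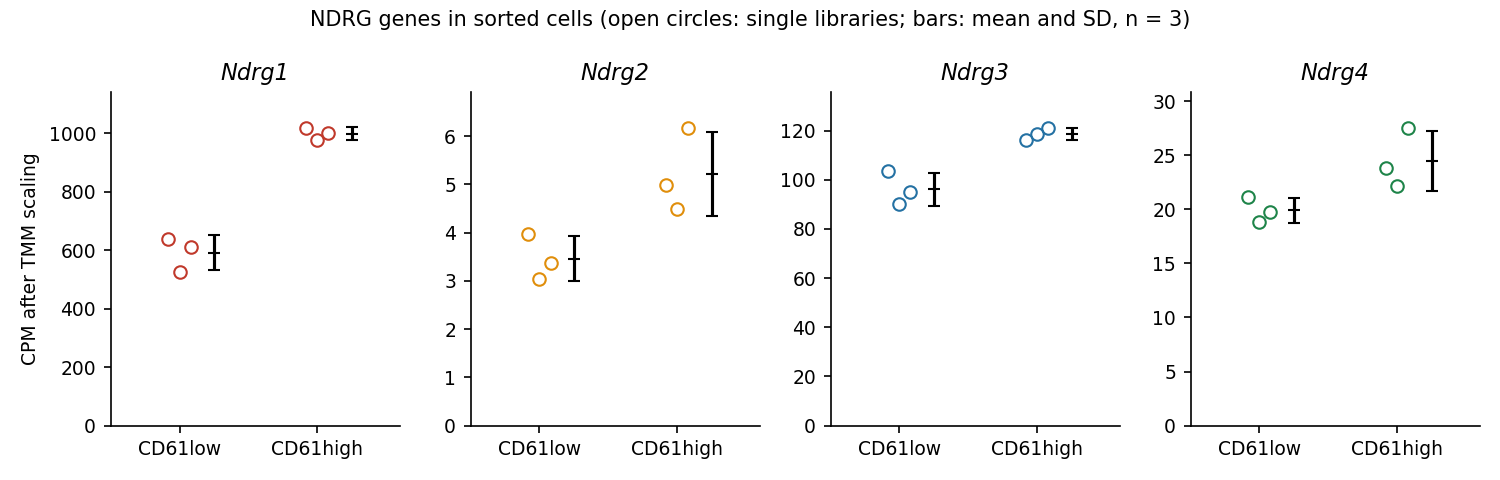
CPM after TMM scaling of each NDRG gene in the CD61low and CD61high libraries, on linear axes from 0, with open circles for single libraries and bars for mean and SD (n = 3). *Ndrg1* is near 1000 CPM in all CD61high libraries and at 524 to 637 CPM in CD61low libraries, and the other 3 genes differ by 1.23-fold to 1.51-fold in their means.

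On the TPM scale of the deposited files, which is per length, *Ndrg1* made up 80.1% ± 0.65 of the family in CD61low and 84.7% ± 0.42 in CD61high cells (SD, n = 3), *Ndrg3* 15.1% ± 0.70 and 11.6% ± 0.13, and *Ndrg4* 3.79% ± 0.24 and 2.74% ± 0.33. The exact two-sided permutation p was 0.1 for each of these shares, the smallest that 3 against 3 libraries allow. *Ndrg2* held 1.03% ± 0.27 in CD61low and 0.92% ± 0.39 in CD61high cells (SD, same permutation test, p = 0.9). Shares of the same total are not separate results. In TPM itself, *Ndrg3* averaged 78.4 in CD61low and 78.2 in CD61high cells and *Ndrg4* 19.7 and 18.5, while *Ndrg1* averaged 418 and 570, so the shares of *Ndrg3* and *Ndrg4* are set by the level of *Ndrg1* as well as their own. The order *Ndrg1*, *Ndrg3*, *Ndrg4*, *Ndrg2* held for the mean TPM of both sorted groups, at 570, 78.2, 18.5 and 6.08 TPM in CD61high cells. CPM per kb and TPM rest on different gene lengths and are not compared with each other.

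Each gene was carried mainly by 1 transcript. Of the 47 transcripts, 30 had counts and 7 reached the 5 normalized counts per library required for testing. The *Ndrg1* transcript ENSMUST00000005256.14 held 98.3% to 99.4% of the *Ndrg1* estimated counts and was the only transcript of the family to pass, with a Log2FC of 0.76 ± 0.09 (SE, edgeR, adjusted p = 0.0014), as did 7.18% of 24985 transcripts tested. It no longer passed without CD61high replicate 3 (adjusted p = 0.011). Relative to its gene its Log2FC was 0.01 (edgeR, adjusted p = 1), in a test that 0.422% of 19652 transcripts passed. The *Ndrg3* transcript ENSMUST00000072298.13 held 87.5% to 97.9% of the *Ndrg3* counts. A second *Ndrg3* transcript, ENSMUST00000069600.13, was at 5.4 counts in CD61low replicate 1 and at 83 to 181 counts in the other 5 libraries, so it failed the filter through that library. The *Ndrg2* transcript ENSMUST00000111632.5 held 57.0% to 99.0% of the *Ndrg2* counts, a wide range at this depth.

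The main *Ndrg4* transcript, ENSMUST00000080666.8, has 14 exons, starts at position 96429691 of chromosome 8 and held 84.8% to 96.7% of the counts. This start lies 26083 bases after the annotated start of the gene. Of the 3 transcripts that start near the annotated start of the gene, ENSMUST00000041318.15 and ENSMUST00000160964.8 had 0 counts in all 6 libraries, and ENSMUST00000166358.8 had 9.8 counts in CD61high replicate 2 and 0 in the others. The RefSeq promoter nearest to the start in use, which serves transcripts with 94.9% of the *Ndrg4* counts, held no ACGTG or GCGTG, whereas the promoter of ENSMUST00000041318.15 held 2 of each. The 2 ACGTG matches overlap in a CACGTG, which 7.2% of all promoters contain, and the 2 GCGTG matches lie on either side of it. The promoter of ENSMUST00000166358.8, whose transcript held 0.4% of the counts, had no match either. The promoter nearest the start of ENSMUST00000160964.8, at 0 counts, held 1 GCGTG and no ACGTG. For *Ndrg2*, the promoter entry with 93.3% of counts held 3 GCGTG. The *Ndrg2* entry with 0.7% held no match, and that with 0.0% held 1 GCGTG. For *Ndrg3*, the entry with 99.9% of counts held no match and that with 0.0% held 2 GCGTG. Matches thus did not separate starts in use from others. For comparison, the first 231 of the 300 bases searched at the *Ndrg4* start in use are shown. The stretch with matches at the promoter of ENSMUST00000041318.15 follows, with matches in capitals:
Ndrg4 start in use, chr8:95702806-95703036, plus strand, GRCm38.p6: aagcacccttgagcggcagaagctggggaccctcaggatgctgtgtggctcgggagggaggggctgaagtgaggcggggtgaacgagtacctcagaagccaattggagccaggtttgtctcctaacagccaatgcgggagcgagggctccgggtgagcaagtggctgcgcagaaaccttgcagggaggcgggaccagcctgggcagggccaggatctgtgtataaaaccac
Ndrg4 upstream start, chr8:95677711-95677737, plus strand, GRCm38.p6: CACGCccacccaccCACGTGggCACGC
No match says only that these letters are not in the window.

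The shRNA and primer sequences designed against *Ndrg4* were located on its transcripts, because the transcripts that hold their sites differ in abundance. The 2 shRNA targets and the 2 primers for quantitative PCR (qPCR), as designed and 5′ to 3′, were:
Ndrg4 shRNA-1: atgacatcgagacgccttatg
Ndrg4 shRNA-2: gatgctggtagtcggagataa
Ndrg4 qPCR forward: actccaaactggacccaacc
Ndrg4 qPCR reverse: CTTCAAGTGTGCAAtgtagccc
Capitals in the reverse primer mark the 14 of its 22 bases that lie in an alternative exon. The shRNA-1 target (chr8:96432820-96432840, GRCm39) is in exon 2 of the main transcript and the shRNA-2 target (chr8:96436540-96436560) in exon 10, both in coding sequence. Transcripts with the shRNA-1 site held 92.3% to 97.4% of the *Ndrg4* counts per library, and those with the shRNA-2 site 96.0% to 99.3%. Neither target matched a transcript of any other annotated gene exactly, and the fewest mismatches to a quantified transcript of *Ndrg1*, *Ndrg2* or *Ndrg3* were 5 for shRNA-1 and 4 for shRNA-2.

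The qPCR primers fell differently. The forward primer (chr8:96437302-96437321) is in exon 11 of the main transcript. The reverse primer spans the junction of exons 13 and 14 of ENSMUST00000073139.14, and exon 14 (chr8:96438953-96438991, 39 bases, coding) is skipped in the main transcript, where the best alignment of the primer has 9 mismatches. The product was searched for in the 11 quantified *Ndrg4* transcripts, not in all 67 annotated ones. Among these 11, a product of 140 bases is thus predicted from ENSMUST00000073139.14, ENSMUST00000041318.15 and ENSMUST00000166358.8 only. These transcripts held 43.3, 4.1 and 7.7 of 442, 402 and 404 estimated counts in the CD61low libraries and 14.1, 48.1 and 0 of 406, 384 and 468 in the CD61high libraries. They made up 9.8%, 1.0% and 1.9% of *Ndrg4* counts in CD61low and 3.5%, 12.5% and 0.0% in CD61high cells, so the groups overlapped. The split between the forms with and without exon 14 is Salmon's estimate, and ENSMUST00000073139.14 and the main transcript also differ at their ends. Transcripts could not be separated in the differentiation table, which is by gene, and the qPCR itself was not analysed here.

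**Figure D4:**
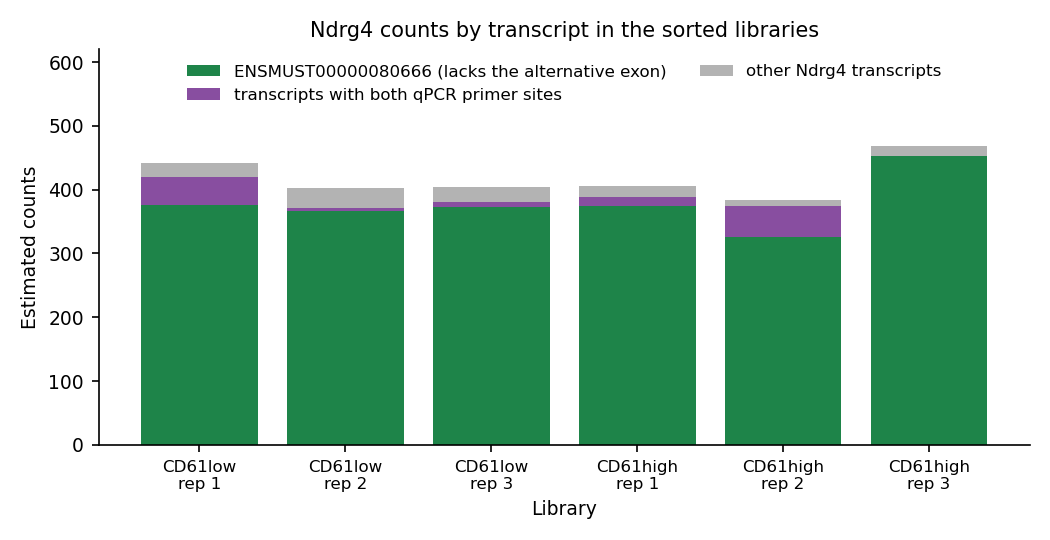
Estimated counts of *Ndrg4* in each sorted library, stacked by the main transcript ENSMUST00000080666, by the transcripts that hold both qPCR primer sites, and by all others. The main transcript takes 326 to 453 counts per library, and the transcripts with both primer sites take 0 to 48.1.

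Genes linked to the family by pathway were then read from lists that do not contain the NDRG genes. Of 30 HIF target genes, 29 were in the differentiation table and tested. Between days 1 and 7, 28 rose and 1 fell, beside 24.5% and 32% of all genes. The median Log2FC of the list was 2.16 (-0.05 over all genes). Between days 7 and 10, 24 fell and 3 rose, beside 18.9% and 29.8% of all genes. The median was -0.62 (0.07 over all genes). Between days 10 and 14, 26 rose and 2 fell, beside 22.9% and 30% of all genes. The median was 1.03 (-0.04 over all genes). *Ndrg1* and *Ndrg2* thus had the sign of most of the list in each of these intervals, *Ndrg4* had it in the later 2, with smaller changes, and *Ndrg3* had the opposite sign from day 7 to day 10. In the sort, 28 of 30 were higher in CD61high cells and none lower, beside 19.4% and 16% of all genes, with a median of 1.05, above the 0.76 of *Ndrg1*. Scaled by library size alone, 27 were higher and 2 lower, with a median of 0.75 beside 0.46 for *Ndrg1*, and of 12045 genes tested 1122 were higher and 4807 lower.

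By Log2FC of log2(CPM + 1), which ranks genes near 0 CPM lower than their ratio would, the largest changes among HIF targets from day 1 to day 14 were those of *Egln3* (PHD3, an oxygen-sensing prolyl hydroxylase) at a Log2FC of 6.98, *Ndufa4l2* (a mitochondrial complex-associated protein) at 6.53, *Car9* (carbonic anhydrase IX) at 6.18 and *Ak4* (a mitochondrial adenylate kinase) at 5.04 (limma, adjusted p at most 4.0e-24). In the sort they were *Adm* (adrenomedullin) at 2.01, *Ndufa4l2* at 1.77, *Aldoc* (aldolase C) at 1.47 and *Ankrd37* at 1.36 (edgeR, adjusted p at most 1.8e-04). *Ndrg1* at 3.36 and *Ndrg2* at 4.07 lay between the median of the list, 2.48, and these genes over the days.

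**Figure D5:**
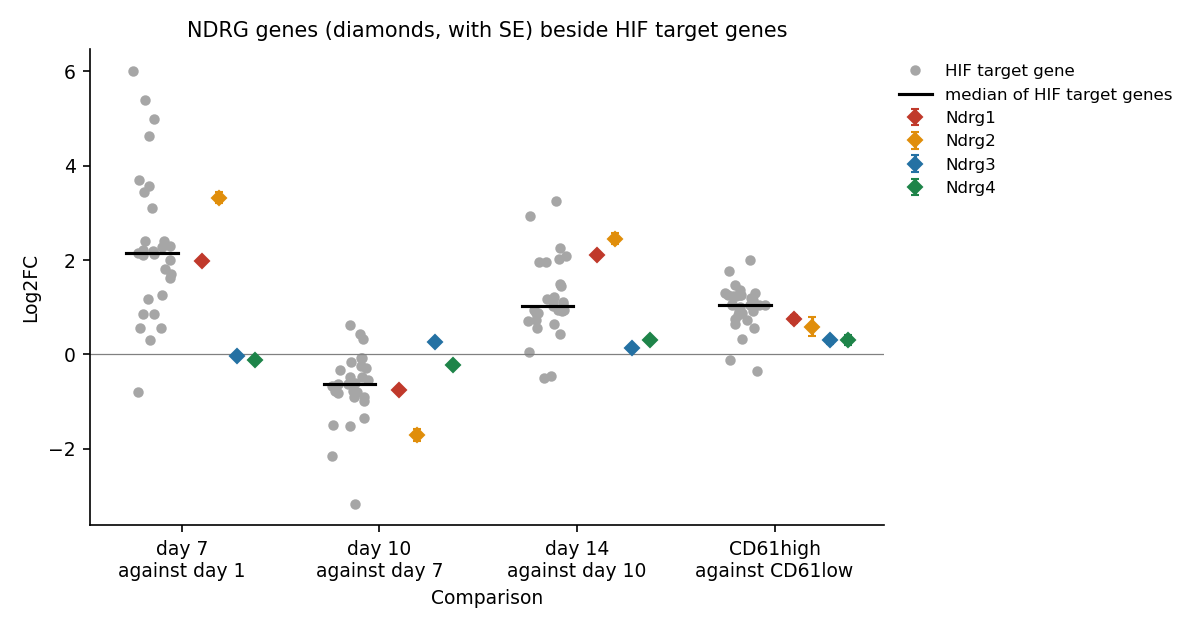
Log2FC of the HIF target genes (grey points, with the median as a black line) and of the 4 NDRG genes (diamonds with SE) in 3 successive intervals of differentiation and in the sort. *Ndrg1* and *Ndrg2* are above 0 to day 7, below 0 from day 7 to day 10 and above 0 again to day 14, like the medians of 2.16, -0.62 and 1.03, while *Ndrg3* and *Ndrg4* stay within 0.31 of 0.

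Among the 14 genes for oxygen sensing and the MYC family, 7 of 11 tested rose and 3 fell between days 1 and 14 (32.6% and 36% of all genes). In CD61high cells 6 of 10 were higher and none lower (19.4% and 16% of all genes), but scaled by library size alone 3 were higher and 3 lower. *Epas1*, which encodes HIF2-alpha, averaged 5.10 CPM on day 1 and 125 CPM on day 14, a Log2FC of 4.37 (limma, adjusted p = 3.7e-29), and was 1.76 higher in CD61high cells (edgeR, adjusted p = 1.2e-05). *Hif1a* was at 232 and 275 CPM in the mean of the same days. *Egln1*, which encodes the PHD2 that hydroxylates NDRG3, rose by 2.99 from day 1 to day 14 (limma, adjusted p = 4.6e-27). *Arnt2*, a partner of HIF-alpha subunits, fell from 1.22 to 0.0489 CPM between days 1 and 10 (by 1.08, limma, adjusted p = 1.2e-06). *Mycn*, the gene of the N-Myc that gave the family its name, was at 0 CPM at day 1 and at most 0.195 CPM in any group mean, and was not tested.

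Of the 10 genes of the SGK1 and GSK3 kinase pathway, which act on NDRG1 protein, 3 of 9 tested rose (33.3%) and 4 fell between days 1 and 14, near the 32.6% and 36% of all genes. *Sgk1* fell from a mean of 73.0 CPM on day 1 to 18.6 CPM on day 14 (by 1.92, limma, adjusted p = 9.6e-19). Its lowest mean was 10.4 CPM on day 7. It then rose by 0.57 to day 10, while *Ndrg1* fell, and by 0.22 to day 14, while *Ndrg1* rose (limma, adjusted p = 1.5e-07 and 0.0083). In CD61high cells *Sgk1* was lower (Log2FC -1.02, edgeR, adjusted p = 8.0e-05). *Sgk3* rose from a mean of 7.06 CPM on day 1 to 44.6 CPM on day 14 (Log2FC 2.50, limma, adjusted p = 5.3e-21). RNA levels say nothing of NDRG1 phosphorylation.

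Of the 6 genes for lactate production and transport, relevant to NDRG3, 4 were tested, and 3 rose and 1 fell from day 1 to day 14 (32.6% and 36% of all genes). *Ldha* (lactate dehydrogenase A) rose by a Log2FC of 2.40, *Slc16a3* (the lactate exporter MCT4) by 5.26 and *Bsg* (basigin, its chaperone) by 1.72 (limma, adjusted p at most 1.5e-23). The same 3 genes were higher in CD61high cells (19.4% of all genes), *Slc16a3* by 1.64 (edgeR, adjusted p = 8.4e-07). The *Ndrg3* RNA rose by a Log2FC of 0.37 over these days.

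Cell cycle genes were checked because NDRG genes are tied to growth. Between days 1 and 14, 3 of 12 rose (25%, against 32.6% of all genes) and 4 fell (36% of all genes), with a median Log2FC of -0.07. In the sort 6 of 12 were higher and 1 lower in CD61high cells (19.4% and 16% of all genes, median of the list 0.43), and scaled by library size alone 1 was higher and 4 lower. Osteoblast and osteocyte markers moved in the same comparisons as *Ndrg1*, with 8 of 10 rising from day 1 to day 14 (median 3.07, against 32.6% of all genes) and 9 of 10 higher in CD61high cells (median 1.49, against 19.4%). *Col1a1* (Log2FC -0.47) and *Pdpn* (-0.53) fell from day 1 to day 14, and *Pdpn* was lower in CD61high cells (-0.48). From day 7 to day 10, 6 of 10 fell (18.9% of all genes) and *Bglap*, *Dmp1* and *Sost* rose (29.8% of all genes). Their part in the NDRG results was not tested.

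The genes nearest to each member were found by the root mean square (RMS) difference of centred log2(CPM + 1) over the 8 differentiation libraries, among the 10313 genes that averaged 5 CPM or more. *Slc2a1* (the glucose transporter GLUT1), at an RMS of 0.15, *Serpine2* (a serine protease inhibitor) at 0.18 and *Vwa1* (an extracellular matrix protein) at 0.20 were nearest to *Ndrg1*. In the sorted libraries, which the ranking did not use and where 19.4% of all genes were higher, their Log2FC was 1.01, 1.30 and 1.13 (edgeR, adjusted p at most 8.1e-05). Nearest to *Ndrg2* were *Smtnl2* (0.19), *Ptgis* (prostacyclin synthase, 0.29) and *Prelid2* (0.29), with a Log2FC of 1.02, 1.68 and 1.46 in the sort (edgeR, adjusted p at most 2.0e-04).

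The flat members had many genes as near. *Smpd1* (acid sphingomyelinase), *Usp33* (a deubiquitinase) and *Chmp2b* (a subunit of the ESCRT-III complex) were nearest to *Ndrg3* at 0.04, and 302 genes lay within 0.1 of it. Their Log2FC in the sort was 0.51, -0.03 and -0.15, and *Smpd1* passed (edgeR, adjusted p = 2.2e-04). *Eri2*, *Ckap5* (a microtubule polymerase) and *Commd10* were nearest to *Ndrg4* at 0.04 to 0.05, and 343 genes lay within 0.1. Their Log2FC in the sort was -0.01, 0.30 and 0.17, and *Ckap5* passed (edgeR, adjusted p = 0.0063). No gene lay within 0.1 of *Ndrg1* or *Ndrg2*. Within the family, *Ndrg3* and *Ndrg4* were nearest to each other (0.23), *Ndrg1* and *Ndrg2* differed by 0.50, and *Ndrg2* and *Ndrg4* by 1.58. These distances describe 8 libraries of 4 days and carry no test.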

How the data were processed

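RNA-sequencing of Ocy454 cells was analysed from the files the authors deposited. For the 8 differentiation libraries these hold CPM per gene, which the authors made with STAR and HTSeq-count. The submitters' processing notes list GRCm39 for every sample, without saying which step used it. Of the CPM values, 100.0% came out as whole reads (tolerance 0.01 reads), which gave back the reads. For the 6 sorted libraries the authors deposited Salmon's estimated counts and TPM per transcript (GRCm39, release 104). Versions of STAR, HTSeq-count and Salmon are not given in the sources used here.

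Estimated counts were summed per gene with GENCODE M39, which held 99.3% to 99.4% of them, and rounded. TMM factors were computed over all genes, and the test was the quasi-likelihood test of edgeR 4.0.16 (R 4.3.3), on genes that reached 5 normalized counts in every library. Transcripts were tested with the same factors, and relative to their gene with edgeR's splicing test. Differentiation libraries were compared with limma 3.58.1 (trend) on log2(CPM + 1) over genes above 1 CPM in at least 1 library. In simulated data with an assumed spread, the count and log-scale tests recovered most of the planted changes. Those changes were larger than the gene-level changes of *Ndrg3* and *Ndrg4*, so recovery of such small changes was not tested. The splicing test was not simulated. Sequences were searched in Python 3.11.15. Promoters came from RefSeq (GRCm38.p6), positions otherwise from GENCODE M39 on GRCm39.

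The members and gene lists were chosen with earlier results of these data known. Named are the 4 members with their transcripts, *Itgb3*, the 3 nearest genes per member, the 4 HIF targets with the largest Log2FC at day 14 against day 1 and in the sort, genes of the oxygen, kinase and lactate lists that passed beyond a Log2FC of 1, and marker genes. *Hif1a*, *Mycn*, *Bglap*, *Dmp1*, *Sost*, *Col1a1*, *Pdpn* and the antisense genes were named after their values were seen. Alternatives were another pseudocount, filters, scalings and tools, a replicate block and leaving out single libraries. List counts under scaling by library size alone were added after seeing the data.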

Additional observations from a re-analysis of the deposited data

How the results depend on the processing

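Over the days, *Ndrg1* and *Ndrg2* kept direction and call in all 60 values each that the alternatives gave, and *Ndrg3* and *Ndrg4* in 54 of 60 each. *Ndrg3* at day 14 against day 10 passed with quantile normalization (0.18), with edgeR on recovered reads (0.20), with the replicate block (0.14, adjusted p = 0.0053), and without day 14 replicate 1 (0.17, adjusted p = 0.0073), and ranged from 0.11 to 0.17 when libraries were left out. Differences near 0 changed sign: *Ndrg3* at day 7 against day 1 was 0.01 with edgeR on recovered reads and ranged from -0.08 to 0.01 with libraries left out, and *Ndrg4* at day 14 against day 1 was 0.02 and ranged from -0.06 to 0.04. *Ndrg4* at day 10 against day 7 ranged from -0.24 to -0.19 with libraries left out, and was -0.29 with edgeR on recovered reads. The cause was not tested. EdgeR on recovered reads moved the share of calls higher at day 10 than at day 7 from 61.3% to 48% and that at day 14 against day 10 from 43.3% to 52.7%. In the sort, scaling by library size alone ended the *Ndrg3* call (0.00), turned *Ndrg4* (-0.00) and turned *Ndrg1* transcript ENSMUST00000171569.8 (-0.06). With single libraries left out, *Ndrg3* ranged from 0.25 to 0.35, and the main *Ndrg1* transcript was at 0.76 without CD61high replicate 3. The methods describe independent groups of cells, from which the top and bottom 10% were collected. The labels do not say that a CD61high and a CD61low library of the same number came from the same group. Correlations were -0.32, 0.22 and -0.06 for same-numbered sorted libraries, and -0.03 to 0.06 over the days. With the replicate block in the sort, calls went from 2342 higher and 1933 lower to 1996 and 1582, and *Ndrg3* was at 0.30 (adjusted p = 0.017). Only CD61low replicate 2 correlated best with its own number among the sorted libraries.

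Counting only genes beyond a Log2FC of 1, no HIF target was lower at day 7, day 10 or day 14 against day 1. Of 12725 genes tested, 588, 563 and 751 were lower in these comparisons. At day 10 against day 7, 0 HIF targets were higher and 5 lower, beside 182 and 100 (0.786%) of all genes. At day 14 against day 10, 15 HIF targets were higher and 0 lower, beside 266 (2.09%) and 111 of all genes. Scaled by library size alone, 2 HIF targets were lower in CD61high cells. Depth limits *Ndrg2*, with 16 and 21 reads at day 1 and 65 to 105 counts in the sort, and the minor transcripts, where a count of 0 allows up to 3 counts, a limit that covers counting error only.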
